A study of Homo sapiens with 3 samples.

Results

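The genes of nuclear transport described here are the 57 genes of the nuclear pore, the importins, the exportins and the Ran cycle. They were taken by symbol from the 59719 gene names of the expression table: NUP, IPO, XPO or KPNA with a number (XPOT, with a letter, included), and KPNB1, TNPO1, TNPO2, TNPO3, CSE1L, TPR, RANBP2, POM121, POM121C, SEH1L, AAAS, NDC1, RAN, RANGAP1, RANBP1 and RCC1. Pseudogenes were left out. The rule uses symbols and no measured value, although earlier results of these data were known when it was written. All 57 reached a mean of 1 TPM over the libraries, the minimum that 13629 gene names in all reached.

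RNA-seq was carried out on PC3 cells, an androgen-independent human prostate cancer cell line, in 3 libraries, 1 per condition. One library came from control cells (shCON), which the submitters' description labels RFP. The others came from cells with hairpin 1 or hairpin 2 against the deubiquitinase USP16 (shUSP16#1 and shUSP16#2). For its xenografts, the paper calls shCON a vector control. The paper describes hairpins cloned into the lentiviral pLKO.1 vector and stable PC3 cells selected with puromycin. It does not state whether the sequenced cells were made in this way. If they were, each condition is 1 selected cell population. The sense strands of the hairpins are shown because they define the conditions, and each matched USP16 in full and 0 of the 57 genes in the GENCODE release 29 transcripts.
shUSP16#1: gccagaagaaatcatgtttat
shUSP16#2: cggtgatattccacaagattt

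Levels are in TPM, a measure of transcript abundance that is set per transcript length and to the same sum in every library, and where 3 levels are listed they follow the order shCON, shUSP16#1, shUSP16#2. USP16 was at 19.9, 3.5 and 1.08 TPM, lower in each hairpin library and lowest with shUSP16#2. TPM keep no record of sequencing depth, so the depth and the counting error of a value are unknown. A change is the log2(TPM + 1) of a hairpin library less that of shCON, which understates the change of low genes. Genes that reached the minimum are called tested. Over all of them the median change was -0.17 with shUSP16#1 and -0.37 with shUSP16#2, and values relative to these medians are called centred. With 1 library per condition no difference has a replicate check and no p-value is given. A change of at least 2-fold under both hairpins, meaning at least 1 in log2(TPM + 1), is used as a description of size. A gene somewhat past 2-fold in TPM can therefore miss it. In bulk RNA, fewer cells of a kind and less transcript per cell cannot be told apart. The epithelial genes KRT8, KRT18, KRT19 and EPCAM, with VIM and CD44, lay between 40.5 and 1005 TPM in all libraries. Their levels differed between the libraries too, with 96.4, 59.8 and 40.5 TPM for VIM, 273.5, 166 and 136 TPM for EPCAM, 1005, 606 and 707 TPM for CD44 and 507, 838 and 958 TPM for KRT19. Their part in the results was not tested. The prostate luminal genes KLK2 and KLK3 were listed at 0 TPM in all libraries. Of 7 markers of leukocytes, endothelium and fibroblasts, CD68 was at 31.7 to 42.2 TPM, COL1A1 at 4.19 to 10.7 TPM and the others at 1.28 TPM or less.

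The nuclear pore complex is a channel through the nuclear envelope, built from nucleoporins arranged in rings. Importins carry cargo with a nuclear localization signal into the nucleus and exportins carry cargo with a nuclear export signal out of it. The small GTPase Ran sets the direction, since RCC1 loads it with GTP in the nucleus and RANGAP1 promotes GTP hydrolysis in the cytoplasm. Proliferating cells build new pores in each cycle, and several transport factors also act on the mitotic spindle.

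Most transcripts of nuclear transport were lower under both hairpins. Of these, 54 of 57 were lower with each hairpin, against 57.2% of all tested genes, and 2 were higher under both, against 24.5%. 14 genes (24.6%) fell at least 2-fold with each hairpin, against 4.58% of all tested genes. No gene of the 57 was at least 2-fold higher under both, against 1.12%. The median log2 change was -0.68 under shUSP16#1 and -1.01 under shUSP16#2. Centred on all tested genes, these medians were -0.51 and -0.64. Among the 11494 tested genes that are protein-coding, as all 57 are, 4.5% fell at least 2-fold under both hairpins and 60.3% were lower under both. Both comparisons use the same shCON library.

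The 14 genes that fell at least 2-fold under both hairpins were NUP107, NUP155, NUP58, TPR, NUP153 and NUP50 of the pore, KPNA4, KPNB1, IPO5, IPO11 and TNPO1 among the import receptors, and XPO1, XPO4 and CSE1L among the exportins. They are also all of the genes at least 2-fold lower under shUSP16#1, against 5.76% of all tested genes. Under shUSP16#2 there were 31, against 19.5%. Several genes lay just short of the threshold under shUSP16#1, with log2 changes of -0.995 for KPNA2, -0.996 for NUP214 and -0.98 for NDC1. When centred, 6 were at least 2-fold lower with each hairpin (TNPO1, NUP107, KPNB1, CSE1L, NUP153 and NUP50), against 1.98% of all tested genes. After removal of the dependence on GC content, which is given further on, there were 5 (TNPO1, NUP50, KPNB1, IPO4 and NUP153), against 1.93%.

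**Figure D1:**
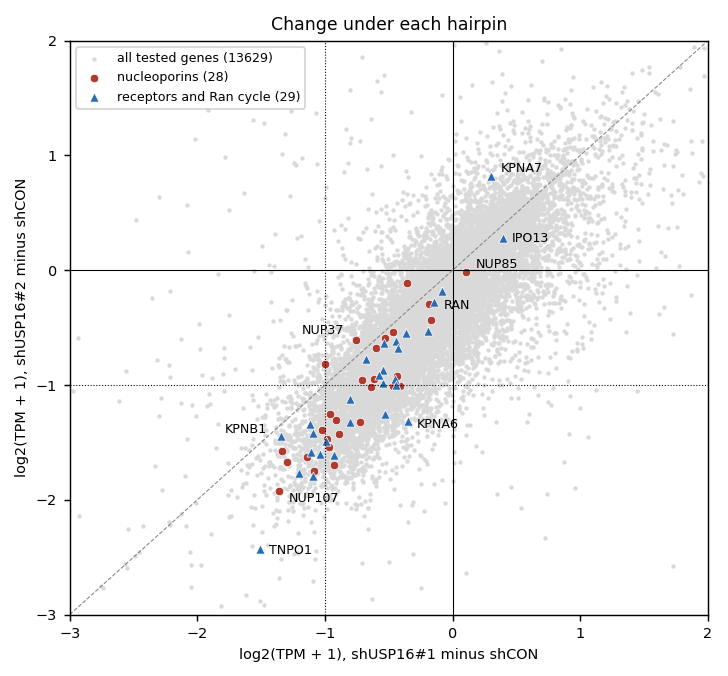
Change in log2(TPM + 1) under shUSP16#1 (x axis) and shUSP16#2 (y axis) relative to shCON, for all 13629 tested genes in grey, 28 nucleoporins as circles and 29 transport receptors and Ran cycle genes as triangles; dotted lines mark a 2-fold fall and grey points beyond the axes are not drawn. Most of the 57 genes lie in the lower left, 53 lie below the dashed line of equal change, and KPNA7 and IPO13 are the 2 in the upper right.

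Levels fell from shCON to shUSP16#1 and again to shUSP16#2 for 51 of the 57 genes, against 46.5% of all tested genes. Directly between the hairpin libraries, 53 genes were lower under shUSP16#2, against 73.5% of all tested genes. This order is that of the remaining USP16 level. When centred, 39 genes fell at each step, against 28.1% of all tested genes. The 4 genes that were not lower under shUSP16#2 than under shUSP16#1 were NUP37, NUP214, NUP210 and KPNA7. The largest difference between the hairpin libraries was found for KPNA6, an importin alpha, at 12.2, 9.34 and 4.31 TPM, with log2 changes of -0.35 and -1.31. The summed level of the 57 genes was 3959, 2647 and 2275 TPM. The hairpin sums are 66.9% and 57.5% of the shCON sum.

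**Figure D2:**
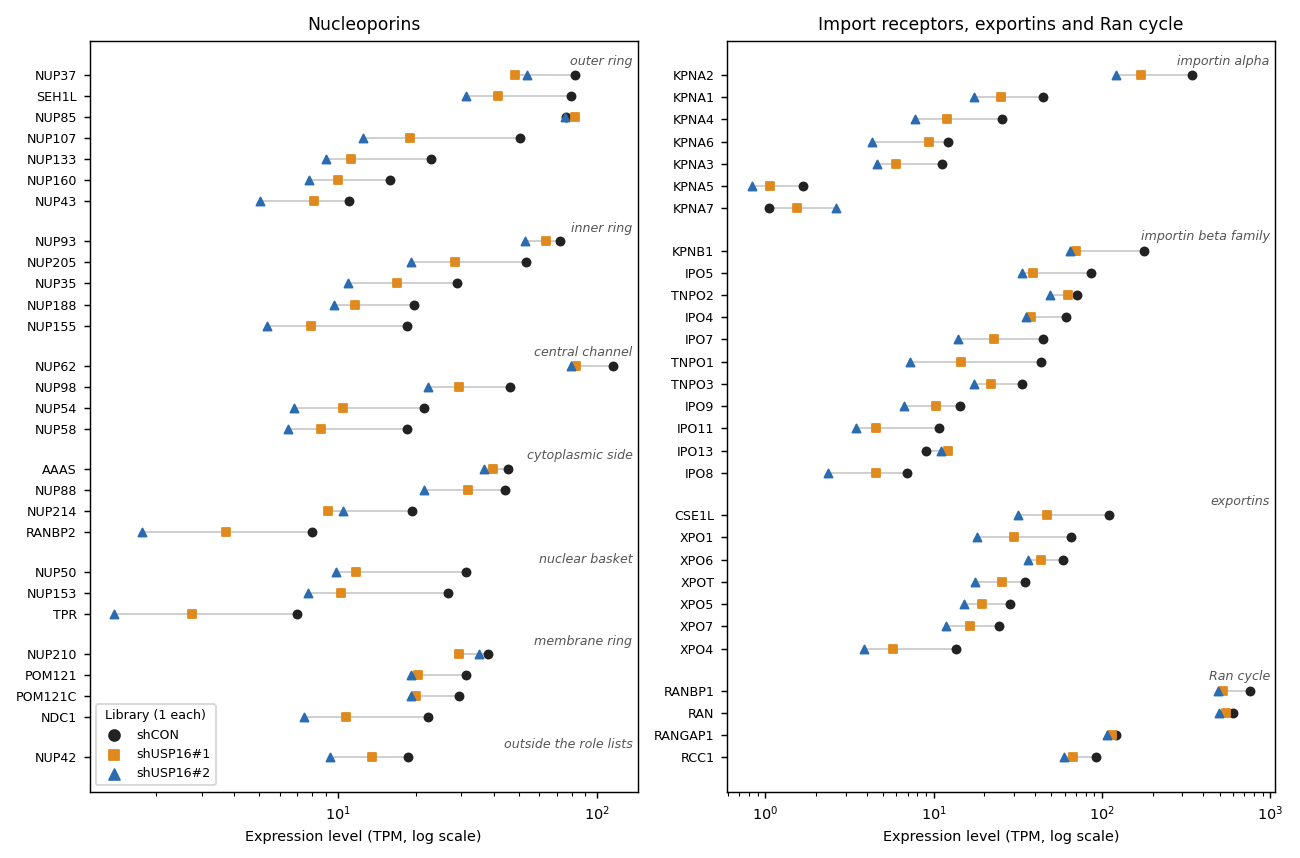
Expression level in TPM on a log axis for each gene in the shCON (circle), shUSP16#1 (square) and shUSP16#2 (triangle) libraries, 1 library each, grouped by place or role and ordered by the shCON level. In most rows the circle lies furthest right and the triangle furthest left, while NUP85, RANGAP1 and RAN have symbols close together and KPNA7 and IPO13 have the circle furthest left.

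The outer ring, or Y complex, is the scaffold on both faces of the pore and is recruited to kinetochores in mitosis. 6 of its 7 genes here were lower with each hairpin, against 57.2% of all tested genes. Of the 7, NUP107 alone fell at least 2-fold with each, against 4.58%. NUP107 fell from 50.3 TPM to 19.0 and 12.5 TPM, log2 changes of -1.36 and -1.93. This was the largest fall of the nucleoporins. NUP85, a partner of NUP107 in the same complex, was at 75.9, 81.9 and 75.3 TPM, which is 108% and 99.1% of its shCON level. The ratio of NUP107 to NUP85 was 0.663, 0.232 and 0.166. SEH1L, NUP133, NUP160, NUP43 and NUP37 were lower, with mean log2 changes from -1.11 to -0.68. NUP37 was the member of this group that was higher under shUSP16#2 (53.5 TPM) than under shUSP16#1 (48.1 TPM), with 81.9 TPM in shCON.

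The inner ring joins the scaffold to the membrane and anchors the channel. Its 5 genes were lower under both hairpins, against 57.2% of all tested genes. Their median log2 change was -0.73 under shUSP16#1 and -1.32 under shUSP16#2. NUP155, a core scaffold subunit, fell from 18.6 TPM to 7.89 and 5.34 TPM. NUP205 (53.4, 28.4 and 19.2 TPM), NUP188 (19.8, 11.7 and 9.69 TPM) and NUP35 (28.8, 17.0 and 10.9 TPM) were lower in the same order. NUP93, which holds NUP188 and NUP205 in the ring, differed least, at 71.7, 63.7 and 52.9 TPM, and its centred mean change was -0.030.

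The central channel is lined by nucleoporins rich in phenylalanine-glycine repeats, which contact the transport receptors. NUP58 fell from 18.5 TPM to 8.62 and 6.42 TPM. Its partner NUP54 was at 21.6, 10.5 and 6.79 TPM. Under shUSP16#1 it was at 48.8% of its shCON level, with a log2 change of -0.97, just short of the threshold. NUP62, the third subunit of this trimer, was at 115, 83.0 and 79.1 TPM. In shCON this was the highest level among the nucleoporins taken by symbol, which leave out SEC13. The members of the trimer thus had mean log2 changes of -1.21, -1.25 and -0.50. With the GC trend removed these were -0.85, -0.71 and -0.86 in the same order. NUP98, whose transcript also encodes the scaffold protein Nup96, was at 46.2, 29.2 and 22.3 TPM.

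On the cytoplasmic side, where export complexes are taken apart, 4 of 4 genes were lower with each hairpin, against 57.2% of all tested genes. On the log2(TPM + 1) scale 0 passed the 2-fold threshold with both, against 4.58% of all tested genes. RANBP2, the large filament protein and SUMO ligase, was at 7.96, 3.71 and 1.77 TPM. In TPM it was at 46.6% and 22.2% of its shCON level, but its log2 change under shUSP16#1 was -0.93. The RGPD genes are near-identical partial copies of RANBP2, so its reads may be divided between them. RGPD6 was the highest of these in shCON, at 3.86 TPM. NUP214 (19.3, 9.17 and 10.5 TPM) and its partner NUP88 (44.4, 31.9 and 21.6 TPM) were lower, with the lowest level of NUP214 under shUSP16#1. AAAS, which encodes aladin, was at 45.3, 39.8 and 36.7 TPM, and its mean log2 change of -0.24 became 0.032 when centred and -0.46 with the GC trend removed. NUP42, which acts with the mRNA export factor GLE1, was at 18.6, 13.5 and 9.35 TPM.

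The nuclear basket projects from the pore into the nucleus. All 3 of its genes fell at least 2-fold under both hairpins, against 4.58% of all tested genes. Their median was the lowest of any group, at -1.29 under shUSP16#1 and -1.67 under shUSP16#2. NUP50, a cofactor in the release of importin alpha, fell from 31.3 TPM to 11.8 and 9.85 TPM. NUP153, which ties the basket to the pore, fell from 26.6 TPM to 10.3 and 7.7 TPM. TPR, the filament of the basket, fell from 6.98 TPM to 2.75 and 1.38 TPM. Its level in shCON was the lowest of the 28 nucleoporins, and 1.38 TPM under shUSP16#2 is close to the pseudocount. The summed level of the basket genes was 38.2% and 29.1% of that in shCON.

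The membrane ring anchors the pore in the nuclear envelope. NDC1 was at 22.3, 10.8 and 7.4 TPM, while NUP210 was at 37.8, 29.4 and 34.9 TPM. NUP210 was thus higher under shUSP16#2 than under shUSP16#1, and its mean log2 change of -0.23 became 0.036 when centred and -0.57 with the GC trend removed. POM121 (31.4, 20.3 and 19.3 TPM) and POM121C (29.29, 20.01 and 19.13 TPM) are near-identical copies that can share reads. Their ratio was between 1.01 and 1.07 in the 3 libraries.

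The importin alpha proteins (KPNA genes) bind the classical localization signal and are themselves carried by importin beta. KPNA2 is the form typical of proliferating cells and held most of the group's transcripts, at 341, 170.4 and 121 TPM. Its log2 changes of -0.995 and -1.49 did not reach 2-fold under both. KPNA4 did, from 25.6 TPM to 11.9 and 7.78 TPM. KPNA1 (44.8, 25.2 and 17.3 TPM) and KPNA3 (11.2, 5.97 and 4.62 TPM) were lower in the same order. KPNA5 was near the minimum, at 1.67, 1.07 and 0.83 TPM, and its mean log2 change of -0.46 became 0.14 with the GC trend removed. KPNA7, a form known from oocytes and early embryos, went the other way, at 1.05, 1.53 and 2.62 TPM, all low levels at which the counting error is unknown.

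The importin beta family holds the import receptors that pass through the channel. 10 of its 11 genes were lower with each hairpin, against 57.2% of all tested genes, and 4 fell at least 2-fold, against 4.58%. TNPO1, the receptor for many RNA-binding proteins with a PY-type signal, fell most of all 57 genes, from 43.5 TPM to 14.6 and 7.27 TPM, log2 changes of -1.51 and -2.43. TNPO2, its close paralogue, was at 71.5, 62.5 and 49.2 TPM. The ratio of TNPO1 to TNPO2 was 0.608, 0.234 and 0.148. Their GC content differs, at 40.1% for TNPO1 and 57.7% for TNPO2. With the GC trend removed, their mean log2 changes of -1.97 and -0.36 became -1.41 and -0.72. KPNB1, which encodes importin beta, fell from 178 TPM to 69.7 and 64.8 TPM and was nearly equal in the hairpin libraries. IPO5, which imports ribosomal proteins and histones among others, fell from 85.8 TPM to 38.9 and 33.3 TPM. IPO11 fell from 10.8 TPM to 4.54 and 3.43 TPM. For these 4 receptors the shCON library was more than 2-fold above either hairpin library, and the hairpin libraries were furthest apart for TNPO1. IPO7 (44.4, 22.9 and 13.9 TPM) and IPO8 (6.97, 4.53 and 2.34 TPM), a pair of paralogues, were lower at each step. IPO13, which works in both import and export, was at 8.94, 12.1 and 11.1 TPM, the other gene higher under both hairpins, and its mean log2 change of 0.34 became -0.024 with the GC trend removed.

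Exportins bind cargo together with RanGTP. All 7 were lower under both hairpins, against 57.2% of all tested genes, and at each step, against 46.5%. Of the 7, 3 fell at least 2-fold under both, against 4.58%. XPO1, the receptor for proteins with a leucine-rich export signal, fell from 65.5 TPM to 30.1 and 18.2 TPM. CSE1L, which returns importin alpha to the cytoplasm, fell from 110.1 TPM to 47.3 and 31.7 TPM. XPO4 fell from 13.6 TPM to 5.76 and 3.85 TPM. The order of the libraries was the same for all 3, and the ratio of XPO1 to CSE1L stayed between 0.573 and 0.636. XPOT, the tRNA exportin, was at 35, 25.3 and 17.6 TPM, and XPO5, which carries pre-microRNAs, was at 28.5, 19.3 and 15.2 TPM. XPO6, the exportin of actin, differed least, at 59.0, 43.5 and 36.6 TPM.

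The Ran cycle genes had the highest summed level and, without a GC correction, the smallest median change of the role groups. RAN itself was at 599, 543 and 494 TPM, and its mean log2 change of -0.21 became 0.059 when centred and 0.13 with the GC trend removed. RANGAP1 was at 121, 114 and 107 TPM, with a mean log2 change of -0.13 that became 0.14 when centred and -0.47 with the GC trend removed. RANBP1, a cofactor of RANGAP1, was at 762, 526 and 490.1 TPM, and RCC1, the exchange factor, at 91.5, 67.1 and 59.2 TPM. The group's median log2 changes were -0.29 and -0.45, or -0.12 and -0.081 when centred. With the GC trend removed the median of its mean log2 changes was -0.59, against -0.27 for all tested genes and -0.43 for the outer ring, which was then the smallest of the role groups. RANBP1 was then at -0.74 and RCC1 at -0.72. The ratio of RANBP1 to RAN was 1.27, 0.969 and 0.992.

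**Figure D3:**
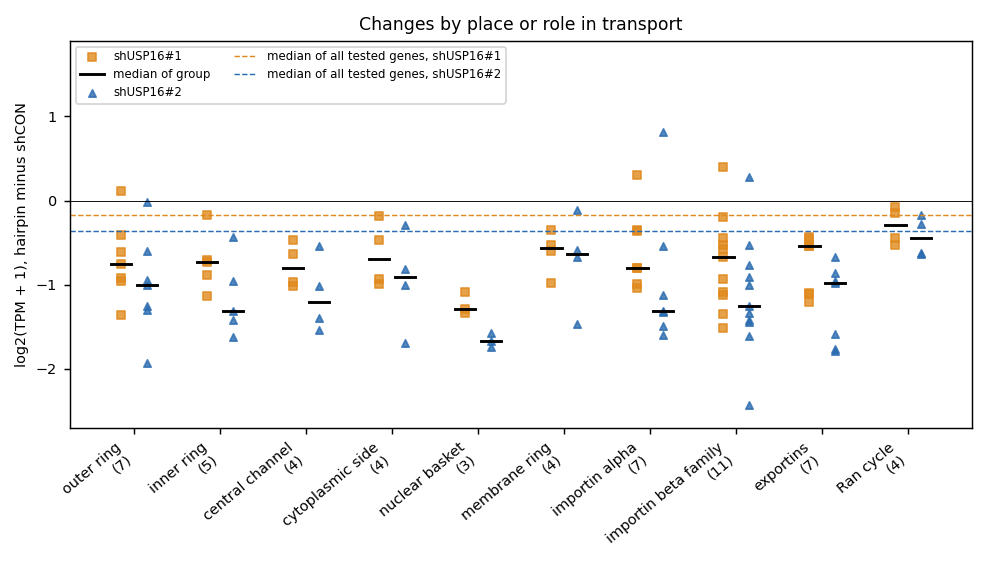
Change in log2(TPM + 1) relative to shCON by place or role, with squares for shUSP16#1, triangles for shUSP16#2, a black bar for each group's median, the number of genes in brackets, and dashed lines for the medians of all tested genes. The 3 genes of the nuclear basket lie lowest as a group, the 4 Ran cycle genes lie near the dashed lines, and the importin beta family is widest, from TNPO1 to IPO13.

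Set by role, the mean log2 change over both hairpins had a median of -1.46 for the basket, -1.02 for the inner ring, -1.02 for the central channel, -0.96 for importin alpha, -0.89 for the importin beta family, -0.82 for the cytoplasmic side, -0.78 for the outer ring, -0.76 for the exportins, -0.60 for the membrane ring and -0.37 for the Ran cycle. Groups hold 3 to 11 genes. By this mean the 3 basket genes lay below every inner ring gene. All other neighbours in this order overlapped in the changes of their genes. In each hairpin library alone the basket and inner ring overlapped too. NUP155 lay below TPR under shUSP16#1 (-1.14 against -1.09) and below NUP50 under shUSP16#2 (-1.63 against -1.57). With the GC trend removed, NUP155 (-0.89) and NUP188 (-0.91) lay below TPR (-0.87). The median was -0.87 for the 28 nucleoporins and -0.89 for the 25 transport receptors. The summed TPM of the receptors under the hairpins was 53.5% and 40.4% of shCON, that of the nucleoporins 64.96% and 55.8%, and that of the Ran cycle genes 79.4% and 73.1%.

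Other genes of nuclear transport, listed by function and not by symbol, were described beside them. Of 24 such genes, 23 reached the minimum. Of these, 16 were lower under both hairpins, against 57.2% of all tested genes, and 2 were higher under both, against 24.5%. Of the 23, 1 fell at least 2-fold under both, which is close to the 4.58% of all tested genes. Their median mean log2 change was -0.35, or -0.084 centred, against -0.83 and -0.56 for the 57 genes. Their median GC content was 51.0%, against 44.2% for the 57 genes. With the GC trend removed the medians were -0.36 and -0.71, against -0.27 for all tested genes. AHCTF1, the pore assembly factor ELYS that recruits the outer ring to chromatin, was the one that fell, from 17.0 TPM to 6.63 and 3.93 TPM. SEC13, an outer ring subunit shared with the COPII coat, was at 167, 168 and 169 TPM. NXF1, the main mRNA export receptor, was at 38.1, 26.7 and 21.7 TPM, and its partner NXT1 at 45.0, 45.3 and 45.7 TPM. NUTF2, which brings Ran back into the nucleus, was at 93.7, 82.6 and 84.2 TPM. NUP210L, expressed in testis, was listed at 0.01 TPM or less.

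The size of the fall moved with the base composition of the transcripts. Across the 57 genes, the rank correlation of the change with GC content was 0.57 under shUSP16#1 and 0.70 under shUSP16#2, and over 13290 tested genes it was 0.55 and 0.65. These points share the libraries, and genes are not replicates. The median GC content was 44.2% for the 57 genes and 49.8% for all tested genes, so the genes described here are poorer in GC. Split into 3 sets of 19 by GC content after the values were seen, the genes had a median mean log2 change of -1.27 from 35.7% to 41.9% GC, -1.07 from 42.9% to 47.8% and -0.53 from 47.9% to 59.9%. The other tested genes within the same ranges had medians of -0.83, -0.53 and -0.11. With the GC trend removed the 3 sets had medians of -0.73, -0.71 and -0.70, against -0.27 for all tested genes. Then 51 genes were lower with each hairpin, against 61.8%, and 0 were at least 2-fold higher, against 0.715%. Under both hairpins 46 genes lay below the median of genes of like GC content, against 38.5%. When centred without that removal, 49 genes were lower under both, against 41.7%, and 0 were at least 2-fold higher, against 2.48%. TNPO1, KPNB1, NUP50, NUP153, NUP107 and IPO4 had mean log2 changes from -1.41 to -1.10 with the trend removed. IPO4, a histone importer with the highest GC content of the 57 genes, moved from -0.72 to -1.18. The rank correlation of the mean change with the deposited gene length was -0.46 across the 57 genes and -0.30 across all tested genes. The part of GC content and length in the fall was not tested beyond these values.

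**Figure D4:**
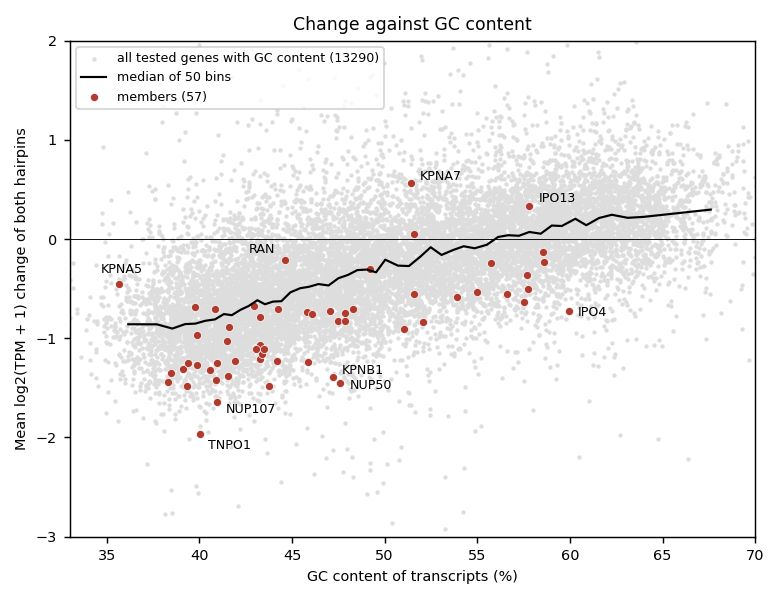
Mean log2(TPM + 1) change over both hairpins against the GC content of the gene's transcripts, with all tested genes in grey, the median of 50 bins of GC content as a line, and the 57 genes in red; grey points beyond the axes are not drawn. The line rises with GC content, most red points lie below it, and RAN, KPNA5, KPNA7 and IPO13 are among those above it.

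The c-Myc signature used by the study holds 310 genes that were higher in prostate cancer cells overexpressing c-Myc in another data set. Of the 57 genes, 6 are in it, namely IPO4, IPO5, RANBP1, RCC1, TNPO2 and XPO5. The share of signature genes among all tested genes was not counted. These 6 genes were all lower under both hairpins, against 57.2% of all tested genes. IPO5 was the one of the 6 genes that fell at least 2-fold, against 4.58% of all tested genes. The median mean log2 change of the 6 genes was -0.64, against -0.89 for the 51 genes outside the signature. The median GC-trend-removed values were -0.73 and -0.71.

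Promoters are shown for genes in which a motif bears on these lists. RefSeq gave a promoter from 250 bases before to 50 bases after the start for 50 of the 57 genes (GRCh38.p14), with more than 1 start for 13. The E-box CACGTG, the letters that c-Myc with MAX is known to bind (the same on both strands), was found for 9 genes (18.0%). It was found in 7.26% of all 35116 promoters and for 12.8% of the 9522 tested genes that had a promoter. Shares of genes for the other motifs use the same 50 and 9522 genes. The 9 genes are IPO4, IPO7, KPNA3, NUP188, NUP50, RAN, RCC1, TNPO2 and XPO1, of which IPO4, RCC1 and TNPO2 are in the signature. Genes with the E-box had a median mean log2 change of -0.83 and those without it -0.89. The promoters of the 3 signature genes and of XPO1 are given below on the gene's strand with the E-box in capitals. For RCC1, TNPO2 and XPO1 this is the one of 2 starts that holds it. They lie at chr14:24188767-24189066 (minus strand), chr1:28517976-28518275 (plus strand), chr19:12723883-12724182 (minus strand) and chr2:61537038-61537337 (minus strand).
IPO4: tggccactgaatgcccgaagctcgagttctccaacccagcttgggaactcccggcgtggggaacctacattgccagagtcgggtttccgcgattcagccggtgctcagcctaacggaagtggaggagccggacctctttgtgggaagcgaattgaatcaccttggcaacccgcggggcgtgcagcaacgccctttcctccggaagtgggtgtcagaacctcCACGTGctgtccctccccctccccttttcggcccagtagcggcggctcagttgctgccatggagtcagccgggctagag
RCC1: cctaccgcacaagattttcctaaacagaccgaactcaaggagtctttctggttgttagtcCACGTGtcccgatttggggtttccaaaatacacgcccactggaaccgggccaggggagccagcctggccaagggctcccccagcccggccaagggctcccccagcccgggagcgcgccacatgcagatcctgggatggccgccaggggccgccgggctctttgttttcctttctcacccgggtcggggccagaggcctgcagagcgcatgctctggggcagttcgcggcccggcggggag
TNPO2: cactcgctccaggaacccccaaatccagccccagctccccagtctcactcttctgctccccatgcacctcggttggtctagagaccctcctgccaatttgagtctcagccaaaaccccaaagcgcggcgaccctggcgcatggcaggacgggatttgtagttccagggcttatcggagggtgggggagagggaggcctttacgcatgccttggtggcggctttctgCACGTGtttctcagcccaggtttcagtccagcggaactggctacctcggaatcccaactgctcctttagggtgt
XPO1: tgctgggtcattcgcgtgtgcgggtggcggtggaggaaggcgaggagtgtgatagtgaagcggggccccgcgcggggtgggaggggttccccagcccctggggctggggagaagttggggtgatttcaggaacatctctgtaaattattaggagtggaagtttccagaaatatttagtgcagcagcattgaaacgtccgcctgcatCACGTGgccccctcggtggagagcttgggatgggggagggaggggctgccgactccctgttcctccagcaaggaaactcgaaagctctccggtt
Relative to the start, the E-box begins at -29 in IPO4, -190 in RCC1, -24 in TNPO2 and -44 in XPO1. These genes had mean log2 changes of -0.72, -0.53, -0.36 and -1.44 in the same order.

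The letters TTTGAA (either strand), the core of the CHR element found in genes of the G2 and M phases, were found for 14 genes (28.0%), in 15.2% of all promoters and for 13.2% of the tested genes. Genes with it had a median mean log2 change of -1.19 and those without it -0.81, both without removal of the GC trend. With the trend removed, the 14 genes ranged from -1.33 for NUP50 to 0.13 for RAN. IPO7 and NUP98, the middle genes of the 14 in that order, were both at -0.71. The median of the 57 genes was then also -0.71, so the 14 genes were then no lower at their middle than the 57. The part of GC content in the difference was not tested. The 14 genes include KPNA2, CSE1L, NUP153, NUP50, IPO11, IPO7 and NDC1 on the lower side, and RAN, RANGAP1 and NUP93 among the least changed. CCAAT (either strand), the letters bound by NF-Y, was found for 21 genes (42.0%) and for 43.1% of the tested genes. The promoter of KPNA2 (chr17:68035485-68035784, plus strand), the importin alpha with the highest level, holds 2 matches of each, in capitals. A match of such short letters is a description of the sequence and not a binding site.
KPNA2: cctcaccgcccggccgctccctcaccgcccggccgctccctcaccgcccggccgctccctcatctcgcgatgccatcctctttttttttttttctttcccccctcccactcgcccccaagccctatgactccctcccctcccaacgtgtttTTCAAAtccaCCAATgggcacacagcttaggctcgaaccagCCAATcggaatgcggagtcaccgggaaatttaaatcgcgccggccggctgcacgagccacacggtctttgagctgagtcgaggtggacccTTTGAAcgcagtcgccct
Of 4 further motifs, CCGGAAG was found for 34.0% of the genes and 23.2% of the tested genes, GGGCGG for 58.0% and 78.2%, TGACGTCA for 6.0% and 3.91%, and TATAAA for 6.0% and 8.1%, each on either strand.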

How the data were processed

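PC3 cells carrying shCON, shUSP16#1 or shUSP16#2 were measured by RNA-seq, 1 library each. The authors deposited 1 table of TPM per gene, made on the Majorbio Cloud Platform; the submitters' processing notes name CASAVA, HISAT2 and the build hg19, and the quantification tool is not given in the sources used here. The table repeats the 3 sample columns, which hold identical values and were used once. Depth is unknown because TPM keeps none. Of 60930 rows, 1211 that repeat an earlier gene name were left out. Tested genes reached an average of 1 TPM or more, and changes were taken as log2(TPM + 1) differences from shCON. GC content came from GENCODE release 29 transcripts (95.9% of gene IDs matched), over all bases of a gene's transcripts, and was found for 97.5% of tested genes. To remove the GC trend, the median of each of 50 bins was subtracted and the overall median added back. Promoters came from RefSeq. No coordinates were taken from the deposited table.

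The members, role groups and lists were chosen with earlier results of these data known. NUP42 was placed on the list of other transport genes, but the symbol rule takes it, so it was counted with the 57 genes and in no role group. Genes named are USP16, 18 core members, those at least 2-fold changed under both hairpins, the lowest and highest change in each group, the 5 highest and 5 lowest levels, and the extremes between hairpins. Other named members, relatives, the promoters and motifs, the sets by GC content and the protein-coding background were chosen after their values were seen, and more motifs were counted than are given. Alternatives were a pseudocount of 0.1, centring, leaving out either hairpin library, a minimum of 5 TPM or none, and removal of the GC trend. Some marker genes are not reported here. The steps were tested on simulated data. Scripts ran in Python 3.11.15 with pandas 2.3.3, numpy 2.4.6 and scipy 1.17.1, and figures were drawn with matplotlib 3.10.9.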

Additional observations from a re-analysis of the deposited data

Results flagged for a closer look

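NUP85, an outer ring subunit, was the only one of the 57 genes whose log2 change had opposite signs under the hairpins, 0.11 under shUSP16#1 and -0.012 under shUSP16#2. The difference was not tested, and its TPM in shCON and under shUSP16#2 were nearly equal.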

How the results depend on the processing

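No paired analysis was possible because the labels give no replicates. A median was taken to have moved when it changed by more than the difference between the hairpin libraries. This is not a replicate spread, since the hairpins also differ in the remaining USP16 level. The count of 14 genes that fell at least 2-fold was 5 with the GC trend removed, 6 when centred, and from 14 without shUSP16#2 to 31 without shUSP16#1, where 1 library alone has to pass. It was 18 with a pseudocount of 0.1 and 13 with a minimum of 5 TPM, which 52 of the 57 genes passed. Without a minimum the count was 14. Centring moved the median under shUSP16#2 to -0.64, the outer ring to -0.51, the cytoplasmic side to -0.55, the membrane ring to -0.33 and the Ran cycle to -0.10. Removing the GC trend moved the outer ring to -0.43, the membrane ring to -0.81 and the Ran cycle to -0.59. The other medians moved by less than this measure in each alternative run for them. Leaving out a hairpin library could hardly show a move, since the same libraries set both the measure and the mean. The count of 54 lower genes was 51 with the GC trend removed, 50 with a minimum of 5 TPM and 49 when centred. That of 51 ordered genes was 49, 47 and 39 in the same order, the centred count being an alternative chosen after seeing the data. Changes of sign were found for RAN (0.059), RANGAP1 (0.14), NUP210 (0.036) and AAAS (0.032) when centred, for RAN (0.13), KPNA5 (0.14) and IPO13 (-0.024) with the GC trend removed, and for NUP85, from -0.012 to 0.11 in a single hairpin. The cause of these moves was not tested. Since depth is unknown, low genes such as KPNA5, KPNA7, TPR and RANBP2 have no error to set their changes against.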

Other observations

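Relatives of these genes that the symbol rule leaves out were chosen after their values were seen. RANBP17, a receptor of the importin beta family, was at 0.9, 0.33 and 0.06 TPM (shCON, shUSP16#1, shUSP16#2). The pseudogene IPO5P1 was at 4.34, 2.22 and 0.74 TPM in the same order as IPO5, and XPOTP1 at 0.78, 0.46 and 0.36 TPM in the same order as XPOT. Whether reads of the parent gene were counted there was not tested. POM121L4P was lower under the hairpins (19.8, 10.9 and 6.14 TPM) and POM121L9P was higher (10.3, 19.3 and 13.7 TPM). NUP50-DT, the divergent transcript beside NUP50, was at 9.62, 12.7 and 12.1 TPM, while NUP50 was lower. Of the copies of RANBP2, RGPD6 was at 3.86, 2.11 and 1.16 TPM, RGPD8 at 1.99, 0.88 and 0.83 TPM, and RGPD5 at 1.73, 2.45 and 0.88 TPM, which is higher under shUSP16#1 than in shCON.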
